A study of Mus musculus with 69 samples.

Results

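The genes Cdx1, Cdx2, Cdx4, Nkx1-2, Evx1, Gdf11 and Sp8 mark the caudal end of the gastrulating mouse embryo, and their RNA levels were followed here through the development of mosaic gastruloids made of wild-type (WT) and p53-knockout (p53KO) cells. They were taken by name, as the 7 rows that carry these symbols among the 55367 gene symbols of the count table. The data were bulk RNA-sequencing counts from 69 libraries, in 23 groups of 3 replicates. All libraries came from clones of E14tg2A, an established mouse embryonic stem (mES) cell line. WT–mCherry cells carried a histone H2B–mCherry label driven by an EF1α promoter, WT–emiRFP cells carried H2B–emiRFP670 driven by a CAG promoter, and p53KO–emiRFP cells were a daughter clone of WT–emiRFP with a frameshift insertion in exon 4 of Trp53. Each genotype and label was therefore represented by 1 clone.

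The 3 clones were profiled as mES cells at 0 h. Mosaic gastruloids, which are aggregates of mES cells that elongate and pattern themselves along a body axis, were then seeded from 150 WT–mCherry and 150 WT–emiRFP cells (WT + WT) or from 150 WT–mCherry and 25 p53KO–emiRFP cells (WT + p53KO). They were grown in N2B27 medium with a pulse of the Wnt pathway agonist CHIR between 48 and 72 h. At 48, 72, 96, 120 and 144 h, both colours of each mosaic were separated by flow sorting, which gave 4 gastruloid populations. They are called WT–emiRFP, p53KO–emiRFP, WT–mCherry beside WT and WT–mCherry beside p53KO. The WT–emiRFP and p53KO–emiRFP cells came from separate gastruloids seeded with different numbers of emiRFP cells, so genotype and seeding number cannot be told apart. The same holds for the genotype and the number of the neighbours of WT–mCherry cells. In bulk RNA of sorted populations, fewer cells of a type and less RNA per cell cannot be told apart either.

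In the embryo, Wnt, FGF and retinoic acid signals act on caudal epiblast cells, and the homeobox factors Cdx1, Cdx2 and Cdx4 relay these signals to the Hox genes that set trunk identity. Nkx1-2 is a homeobox gene of the caudal lateral epiblast and its bipotent neuromesodermal progenitors, Evx1 is a homeobox gene of the primitive streak and tail bud, and Sp8 is a zinc finger factor that acts with Sp5 downstream of Wnt signalling in these progenitors. Gdf11 is a secreted ligand of the TGFβ superfamily that controls the transition from trunk to tail. Cdx2 is also a factor of the trophoblast and of the gut endoderm, and markers of those tissues are therefore given beside its values.

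Levels are given as normalized counts, which are the deposited counts divided by a median-of-ratios size factor computed over all 69 libraries. The libraries held 26722541 to 72981570 counts with a median of 53098728, and their size factors ran from 0.484 to 1.30. Trp53, the disrupted gene, stood at 1506 to 2589 normalized counts in the 18 p53KO–emiRFP libraries and at 13902 to 27511 in the 51 others. H2bc14, an H2B gene whose reads came almost entirely from the emiRFP clones, stood at 4934 to 10517 normalized counts in emiRFP cells and at 6.20 to 8.21 in WT–mCherry mES cells. It reached 926, 130 and 456 in the WT–mCherry libraries beside p53KO at 144 h, a measure of emiRFP RNA in that sort. The pluripotency factor Pou5f1 stood at 28309 to 37569 in the mES libraries, as the mES label implies. The second WT–mCherry mES library stood apart from the other libraries of its group, most in Nkx1-2, of which it held 204 normalized counts against 7.32 and 8.27, and it also held 189 of Cdx2 and 301 of Cdx1 against at most 77.3 and 169.6.

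Upstream sequences of Cdx2, Cdx4 and Evx1 are shown because these 3 members held the same octamer. Nkx1-2, Gdf11 and Sp8 did not hold it in their stretches, and the difference of p53KO–emiRFP from WT–emiRFP cells at 144 h was larger for Nkx1-2 than for Evx1. The stretches are RefSeq sequences of build GRCm38.p6 that run from 250 bases before to 50 bases after the annotated start, written in the direction of transcription. Such sequences were used for 6 of the 7 members. The promoter of Cdx1 was left out and not scanned for any motif. The capitals mark the octamer ATGCAAAT, or ATTTGCAT where it lies on the opposite strand, which is the recognition sequence of the POU family that includes Pou5f1. The Cdx2 gene lies at chr5:147300805-147307270 on the minus strand, and the stretch shown is chr5:147307200-147307499. The Cdx4 gene lies at chrX:103321398-103330592 on the plus strand, with the stretch at chrX:103321148-103321447. The Evx1 gene lies at chr6:52313498-52318378 on the plus strand, with the stretch at chr6:52313248-52313547.
Cdx2: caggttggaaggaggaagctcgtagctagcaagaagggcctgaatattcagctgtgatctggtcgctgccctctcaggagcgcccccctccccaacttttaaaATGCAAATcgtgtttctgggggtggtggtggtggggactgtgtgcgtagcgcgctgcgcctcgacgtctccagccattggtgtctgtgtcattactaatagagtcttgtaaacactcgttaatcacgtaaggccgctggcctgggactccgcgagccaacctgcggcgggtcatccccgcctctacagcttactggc
Cdx4: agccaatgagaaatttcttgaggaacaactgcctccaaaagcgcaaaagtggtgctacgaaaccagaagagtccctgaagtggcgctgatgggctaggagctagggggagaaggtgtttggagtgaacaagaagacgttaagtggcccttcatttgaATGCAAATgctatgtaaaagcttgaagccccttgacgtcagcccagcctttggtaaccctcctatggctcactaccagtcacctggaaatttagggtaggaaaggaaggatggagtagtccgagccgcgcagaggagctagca
Evx1: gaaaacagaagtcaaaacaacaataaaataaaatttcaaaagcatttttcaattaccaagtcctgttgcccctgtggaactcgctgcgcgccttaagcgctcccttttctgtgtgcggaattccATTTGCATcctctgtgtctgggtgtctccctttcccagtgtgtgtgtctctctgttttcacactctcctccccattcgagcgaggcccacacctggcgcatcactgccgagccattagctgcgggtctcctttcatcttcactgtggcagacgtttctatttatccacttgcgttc
The octamer began at position -147 in Cdx2, at -93 in Cdx4 and at -126 in Evx1, relative to the start of transcription. Its letters were chosen after the sequences had been read, and on either strand they occurred in 1.74% of 32851 promoters of the same length. The TCF/LEF motif CTTTGA occurred in 16.0% of these promoters and among the 6 members scanned only in Sp8. The CDX motif TTTATNG occurred in 10.9% of them, in the promoters of Evx1 and Gdf11 and in those of 2 of the Sp8 transcripts. The T-box motif GGTGTGA occurred in 3.98% and in none of the members' promoters that were scanned, which leave out Cdx1. These are matches of letters and not shown to be bound.

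Of the other members, Nkx1-2 lies at chr7:132594878-132599637 on the minus strand, Gdf11 at chr10:128882295-128891718 on the minus strand and Sp8 at chr12:118846329-118852576 on the plus strand. Nkx1-2 lies within the span of Fgfr2 and shares no exon with it. The antisense gene Gm16764 overlaps 541 bases of Nkx1-2 exons (16.6%), and it stayed at or under 18.1 normalized counts in every library. Evx1 and its antisense gene Evx1os share 73 bases (2.54% of Evx1 exons). The library kit kept the strand, but the strand setting of the counts was not stated, so reads in these overlaps cannot be assigned with certainty.

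Over the CHIR pulse from 48 to 72 h the 6 members other than Gdf11 rose in every population, from at most 179 normalized counts in every gastruloid library at 48 h. Gdf11 stood at 216 to 309 at 48 h. In WT–emiRFP cells Nkx1-2 stood at 3.95, 3.14 and 0.898 normalized counts as mES cells, 122, 103 and 113 before the pulse (48 h) and 15886, 13966 and 18205 after it (72 h). Cdx2 moved from 37.7, 44.2 and 33.5 at 48 h to 5305, 3905 and 5504 at 72 h in the same population. No library of either gene at 72 h came near those at 48 h. From 48 to 72 h the log2 fold change in WT–emiRFP cells was 7.15 ± 0.28 (SE, adjusted p = 3.714e-29) for Nkx1-2, 8.55 ± 0.28 (SE, adjusted p = 1.381e-32) for Evx1 and 6.99 ± 0.26 (SE, adjusted p = 6.026e-30) for Cdx2. It was 4.92 ± 0.19 (SE, adjusted p = 2.353e-29) for Sp8 and 4.47 ± 0.57 (SE, adjusted p = 1.476e-09) for Cdx4. Cdx1 rose as well, from 1 to 4 counts per library at 48 h to 4965, 3612 and 5489 normalized counts at 72 h, and no fold change is given from so few reads. Gdf11 did not pass the test over this step, at 0.42 ± 0.20 (SE, adjusted p = 0.07189), although it did with a replicate block (adjusted p = 0.02995). The steps between time points were tested in one edgeR quasi-likelihood fit over all 69 libraries. In WT–emiRFP cells 6 of 7 members rose from 48 to 72 h, when 49.6% of the 21132 genes tested passed in either direction. The same 6 rose in p53KO–emiRFP cells, against 46.4% of genes, and in WT–mCherry cells beside WT, against 48.8%. Beside p53KO all 7 rose, against 51.1% of genes. The added member was Gdf11, at 0.48 ± 0.19 (SE, adjusted p = 0.03168), and its call was lost without replicate 1 (adjusted p = 0.2218) or without replicate 3 (0.05483).

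Before the pulse the members did not move together. From 0 to 48 h in WT–emiRFP cells Cdx1 fell from 169, 176 and 153 normalized counts to under 5, and Evx1 fell by 2.91 ± 0.43 (SE) on the log2 scale (adjusted p = 5.428e-08). Nkx1-2 rose from 1 to 5 counts per library to 122, 103 and 113 normalized counts (adjusted p = 1.071e-09), and Gdf11 and Sp8 rose by 0.68 and 1.02 on the log2 scale. In all, 3 members rose and 2 fell, with 60.3% of all genes called. The rise of Sp8 was not called without replicate 1 (adjusted p = 0.05883). For p53KO–emiRFP cells 3 rose and 3 fell, with 59.5% called. Of these falls that of Cdx2 was not called without replicate 3 (adjusted p = 0.49), and that of Evx1 was not called without replicate 1 (0.1754) or 3 (0.06052).

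Most members were highest at 96 h. Between 72 and 96 h in WT–emiRFP cells Cdx4 had the largest log2 fold change of the 7, at 4.18 ± 0.27 (SE, adjusted p = 2.894e-19). Cdx1 rose by 2.33 ± 0.22 (SE, adjusted p = 1.084e-13), to 21166, 25625 and 23945 normalized counts, and Gdf11 rose by 2.25 ± 0.18 (SE, adjusted p = 7.018e-16). Nkx1-2 and Evx1, which these cells already held at 16019 ± 2123 and 2915 ± 523 normalized counts at 72 h (SD, n = 3), gave 0.25 (adjusted p = 0.3298) and 0.23 (adjusted p = 0.212). These genes rose in p53KO–emiRFP cells by 0.92 (adjusted p = 8.252e-05) and 0.74 (adjusted p = 2.983e-05). Over this step 5 of 7 members rose in WT–emiRFP cells, with 41.5% of genes called, and 7 of 7 in p53KO–emiRFP cells, with 44.5% called. The difference between the 2 populations in this change was itself past the threshold for 1 member, Sp8, with 11% of genes called. Sp8 rose by 0.97 in p53KO–emiRFP and by 0.34 in WT–emiRFP cells. The WT–emiRFP rise of Sp8 was not called without any 1 replicate number (adjusted p = 0.08579 to 0.171). With all replicates kept, it was also not called with TMM scaling (adjusted p = 0.05464) or by DESeq2 (0.05559).

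**Figure D1:**
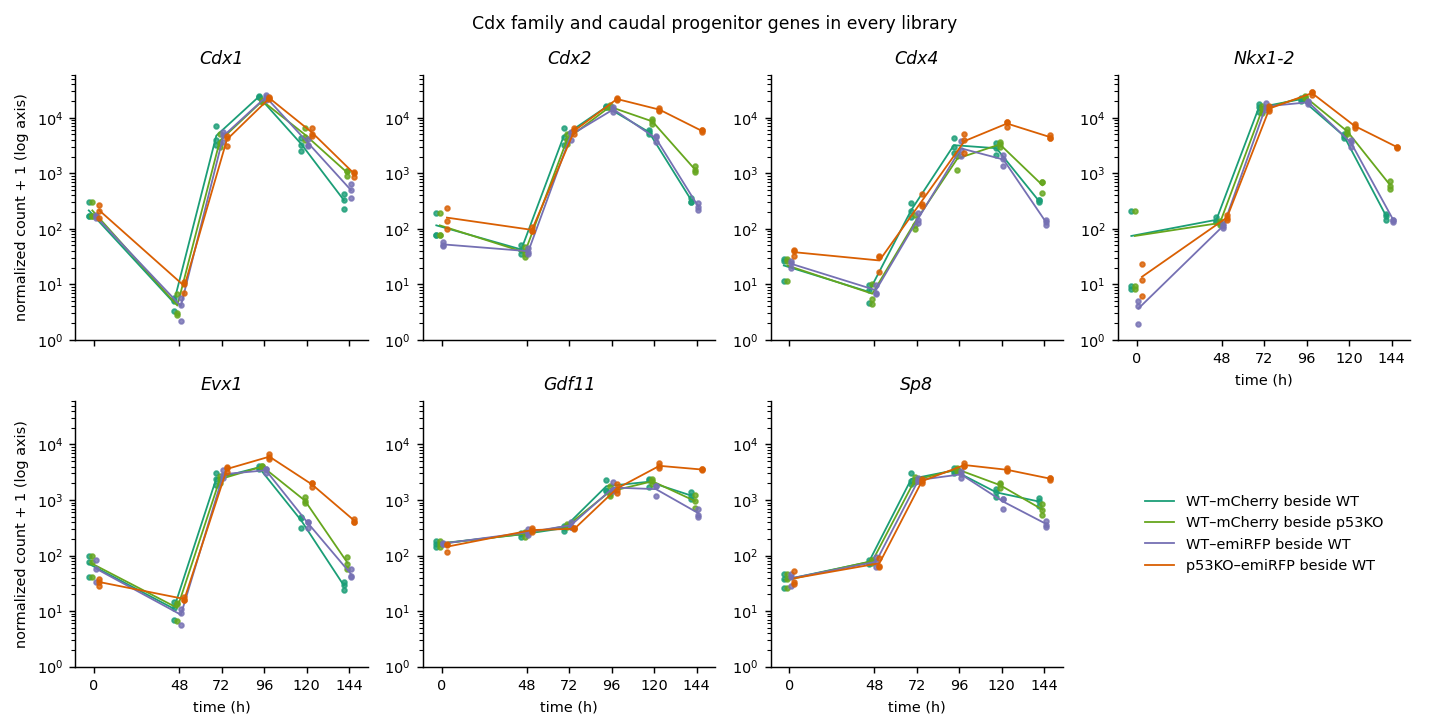
Normalized counts plus 1 (log axis) of the 7 members against time in hours, with points for single libraries, lines through the means of 3 replicates and a colour for each of the 4 populations. The same 3 WT–mCherry mES libraries are drawn at 0 h for both WT–mCherry lines. Cdx1, Cdx2, Cdx4, Nkx1-2, Evx1 and Sp8 climbed between 48 and 72 h in all 4 populations, and the p53KO–emiRFP line lies above the others at 120 and 144 h for Cdx2, Cdx4, Nkx1-2, Evx1, Gdf11 and Sp8.

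From 96 to 120 h, 6 of 7 members fell in WT–emiRFP cells, with 42.3% of genes called. Evx1 dropped by 3.20 ± 0.17, Cdx1 dropped by 2.77 ± 0.22 and Nkx1-2 dropped by 2.42 ± 0.21 on the log2 scale (SE). The fall of Cdx4, by 0.67 ± 0.22, was not called without replicate 3 (adjusted p = 0.1838). Gdf11 was the exception, with -0.09 ± 0.16 (SE, adjusted p = 0.6912). In p53KO–emiRFP cells 4 members fell and 2 rose over the same step, with 34.9% of genes called. The risers were Cdx4, by 1.05 ± 0.22 (SE, adjusted p = 0.0001025), and Gdf11, by 1.35 ± 0.16 (SE, adjusted p = 1.011e-09). Sp8 in p53KO–emiRFP cells gave -0.28 (adjusted p = 0.1031, and 0.01858 with a replicate block). The change from 96 to 120 h differed between p53KO–emiRFP and WT–emiRFP cells for 5 members, Cdx2, Cdx4, Evx1, Gdf11 and Sp8, all in the direction of a higher level in p53KO–emiRFP cells, with 30.8% of genes called.

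From 120 to 144 h all 7 members fell in WT–emiRFP cells, with 33.8% of genes called, and 6 of 7 fell in p53KO–emiRFP cells, with 22.7% called. The falls in WT–emiRFP cells were deepest for Nkx1-2, which decreased by 4.65 ± 0.25 (SE), and Cdx2, which decreased by 4.10 ± 0.20. In p53KO–emiRFP cells Nkx1-2 decreased by 1.27 ± 0.20 and Cdx2 by 1.28 ± 0.17. Gdf11 there did not pass the test (-0.22, adjusted p = 0.3696). The falls of Cdx4 and Sp8 in p53KO–emiRFP cells were not called without replicate 1 (adjusted p = 0.1419 and 0.07139). The change differed between the 2 populations for 6 members, every one but Cdx1, with 16.9% of genes called.

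Whether loss of p53 was linked to the members' levels was asked by setting p53KO–emiRFP against WT–emiRFP cells at each time, in a separate edgeR fit per time point. The labels give the 3 replicates as separate samples, the study describes them as independent experiments, and the p-values measure the spread between them. In mES cells 1 member of 7 was called, Cdx2, where 6.13% of 18323 genes tested were called. Cdx2 stood at 97.5, 136 and 240.2 normalized counts in mES cells of the p53KO–emiRFP clone, against 48.2, 49.1 and 56.6 in those of WT–emiRFP. The 2 ranges did not overlap, and the log2 fold change was 1.61 ± 0.37 (SE, adjusted p = 0.02056). It was not called without replicate 2 (adjusted p = 0.05217), without replicate 3 (0.1635), or with WT–mCherry mES cells as the comparator (0.4367).

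At 48 h, just before the pulse, 3 of the 6 members tested were higher in p53KO–emiRFP cells, where 22% of all genes were called. Cdx4 held 15.7, 30.6 and 31.2 normalized counts in p53KO–emiRFP and 5.89, 8.84 and 5.77 in WT–emiRFP cells, with a log2 fold change of 1.89 ± 0.40 (SE, adjusted p = 0.003119). Cdx2 held 88.7, 105 and 89.6 against 37.7, 44.2 and 33.5, at 1.29 ± 0.19 (SE, adjusted p = 0.0001609). Neither pair of ranges overlapped. Nkx1-2 differed less, at 0.49 ± 0.13 (SE, adjusted p = 0.01352), and lost its call without replicate 1 or 2 and against WT–mCherry cells, and Cdx4 lost its call without replicate 3 (adjusted p = 0.05976). Evx1 gave 1.01 ± 0.40 (SE, adjusted p = 0.08404), and 0.04795 with a replicate block. Cdx1, with 6 to 8 counts per library in p53KO–emiRFP and 1 to 4 in WT–emiRFP cells, was too low to be tested.

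At 72 h, at the end of the pulse, 1 of 7 members was called, Cdx4, where 29.1% of genes were called. Cdx4 stood at 275, 256 and 421 normalized counts in p53KO–emiRFP cells and at 141, 127 and 195 in WT–emiRFP cells. The ranges were separate, the level was 2.05 times as high, and the log2 fold change was 1.03 ± 0.26 (SE, adjusted p = 0.007425). Without replicate 1 its adjusted p was 0.07836, and against WT–mCherry cells it was 0.1235. With a replicate block, under which 6900 of 17714 genes were called, 3 further members passed. They were Cdx2 at 0.26 (adjusted p = 0.4015, blocked 0.03577), Evx1 at 0.31 (0.1573, blocked 0.01833) and, in the lower direction, Nkx1-2 at -0.13 (0.5022, blocked 0.04215).

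At 96 h, when WT–emiRFP cells had reached their highest mean levels of all 7 members, 4 of 7 were higher in p53KO–emiRFP cells, Cdx2, Nkx1-2, Evx1 and Sp8. At this time 23.3% of 18343 genes were called and 9.45% were called higher. Evx1 had the largest difference of the 4, with 5878, 5541 and 6683 normalized counts against 3062, 3609.9 and 3598 and a log2 fold change of 0.82 ± 0.08 (SE, adjusted p = 5.034e-06). Cdx2 stood at 21957, 20679.7 and 22588 against 12496, 15456 and 14575, at 0.62 ± 0.07 (SE, adjusted p = 1.409e-05). For both genes every p53KO–emiRFP library lay above every WT–emiRFP library. Nkx1-2 gave 0.55 ± 0.07 (SE, adjusted p = 3.804e-05) and Sp8 gave 0.56 ± 0.10 (SE, adjusted p = 0.0007666). Cdx1, the most abundant of the 3 Cdx genes here, gave -0.07 ± 0.06 (SE, adjusted p = 0.4749), with 21442, 22800.2 and 23248 against 21166, 25625 and 23945 normalized counts and overlapping ranges. Gdf11 gave -0.05 ± 0.20 (SE, adjusted p = 0.8961). Cdx4 gave 0.44 ± 0.31 (SE, adjusted p = 0.3511) and passed with a replicate block (adjusted p = 7.926e-06), under which 7078 genes were called. Its levels were 3974, 2349 and 5065 against 2587, 2017 and 3826, and same-numbered libraries of both populations were high or low together.

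At 120 h all 7 members were higher in p53KO–emiRFP cells. The background was wide, with 51% of 18860 genes called and 27.3% called higher. The median log2 fold change of the members was 1.72, and that of all genes tested was 0.05. At 144 h all 7 were again higher, with 65.3% of 19431 genes called and 33.1% called higher, and with a median of 3.21 for the members and 0.01 for all genes. For each member at both times the lowest p53KO–emiRFP library exceeded the highest WT–emiRFP library. At 144 h all 7 were also called against WT–mCherry cells beside WT as the comparator, where 10491 of 19431 genes were called and 5396 called higher, at log2 fold changes of 1.56 for Cdx1, 4.15 for Cdx2, 3.83 for Cdx4, 4.16 for Nkx1-2, 3.92 for Evx1, 1.56 for Gdf11 and 1.38 for Sp8.

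Of the 3 Cdx genes, Cdx4 showed the largest difference from WT–emiRFP cells at 144 h, while Cdx2 showed the largest from WT–mCherry cells. Cdx4 stood at 8374, 6836 and 8383 normalized counts in p53KO–emiRFP and 2138, 1326 and 1831 in WT–emiRFP cells at 120 h, and at 4376, 4251 and 4913 and 146, 116 and 130.4 at 144 h. WT–emiRFP cells had lost most of their Cdx4 RNA by 144 h and p53KO–emiRFP cells had not. The log2 fold change was 2.16 ± 0.18 (SE, adjusted p = 2.534e-07) at 120 h and 5.11 ± 0.16 (SE, adjusted p = 5.546e-11) at 144 h, the latter a 34.4-fold difference. Cdx2 stood at 15035, 13853 and 13080.3 against 4653, 3643 and 4438 at 120 h, and at 5487, 5912 and 5934 against 286, 242 and 216 at 144 h. Its log2 fold change was 1.72 ± 0.10 (SE, adjusted p = 8.64e-09) at 120 h and 4.54 ± 0.12 (SE, adjusted p = 1.206e-11) at 144 h, or 23.3-fold. Cdx1 differed least, with 872, 1004 and 1037 against 493, 634 and 362 at 144 h. Its log2 fold change was 0.65 ± 0.21 (SE, adjusted p = 0.0159) at 120 h, not called without replicate 1 (adjusted p = 0.1328), and 0.97 ± 0.21 (SE, adjusted p = 0.0008992) at 144 h.

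Nkx1-2 stood at 7730.4, 7196 and 6482 normalized counts against 3929, 3000.5 and 3718 at 120 h, and at 2881, 3011 and 2985 against 145, 134 and 144 at 144 h. Its log2 fold change was 1.01 ± 0.11 (SE, adjusted p = 3.138e-06) and then 4.39 ± 0.12 (SE, adjusted p = 2.21e-11), a rise from 2.01-fold to 21-fold. Both populations lost Nkx1-2 RNA over this day, WT–emiRFP cells by far more. Evx1 stood at 2001, 2028 and 1689 against 405, 310.1 and 403 at 120 h, and at 408, 404 and 452 against 55.0, 39.7 and 41.7 at 144 h. It had the largest log2 fold change of the 7 at 120 h, 2.35 ± 0.16 (SE, adjusted p = 3.735e-08), and 3.21 ± 0.19 (SE, adjusted p = 5.774e-09) at 144 h. Its antisense gene Evx1os stood at 335 ± 18.6 in p53KO–emiRFP and 24.5 ± 5.38 in WT–emiRFP cells at 144 h (SD, n = 3). Sp8 stood at 2307, 2499 and 2500.3 against 425, 331 and 356 at 144 h, with log2 fold changes of 1.91 ± 0.14 (SE, adjusted p = 9.17e-08) at 120 h and 2.71 ± 0.16 (SE, adjusted p = 4.704e-09) at 144 h.

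The ligand Gdf11 came late. Its levels in p53KO–emiRFP cells were 1536, 1329 and 1972 normalized counts at 96 h, then 4103, 3716 and 4546 (120 h) and 3559.7, 3468 and 3578 (144 h). WT–emiRFP cells held 1438, 1512 and 2065 (96 h), 1763, 1160.1 and 1779 (120 h) and 690.3, 502 and 536 (144 h). The 2 populations overlapped at 96 h and were apart at 120 h and 144 h. The log2 fold change was 1.39 ± 0.16 (SE, adjusted p = 6.708e-06) at 120 h and 2.62 ± 0.17 (SE, adjusted p = 1.481e-08), or 6.13-fold, at 144 h.

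**Figure D2:**
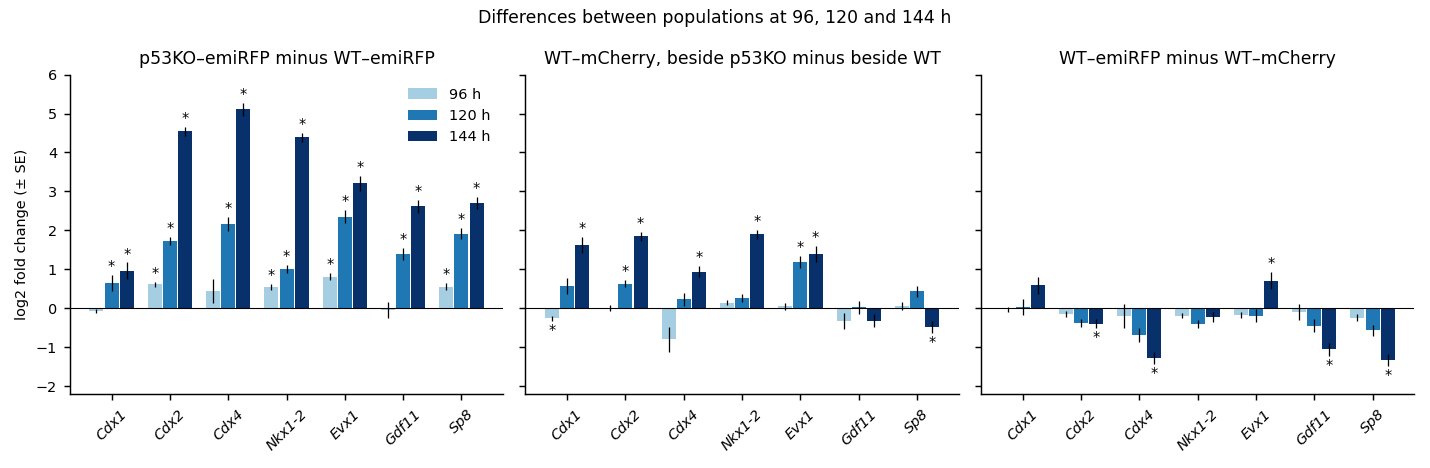
Log2 fold changes of the 7 members at 96, 120 and 144 h, as bars with standard errors (3 against 3 libraries), in 3 panels for p53KO–emiRFP against WT–emiRFP, WT–mCherry beside p53KO against beside WT, and WT–emiRFP against WT–mCherry beside WT. Asterisks mark an edgeR adjusted p under 0.05. At 144 h the p53KO–emiRFP bars run from 0.97 for Cdx1 to 5.11 for Cdx4.

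How much of the 96 h level was left at 144 h was computed within each replicate number, as a description of levels. WT–emiRFP cells kept 0.745% ± 0.0769 of Nkx1-2, 1.35% ± 0.386 of Evx1, 1.78% ± 0.445 of Cdx2 and 4.93% ± 1.32 of Cdx4 (mean ± SD, n = 3). In p53KO–emiRFP cells the shares were 10.7% ± 0.980, 7.0% ± 0.267, 26.6% ± 1.82 and 129% ± 45.1. Cdx4 in p53KO–emiRFP cells was thus about as high at 144 h as at 96 h, with a wide spread between replicates. Cdx1 was the member that p53KO–emiRFP cells lost most fully, with 4.31% ± 0.211 left against 2.11% ± 0.520 in WT–emiRFP cells. Sp8 was kept at 57.3% ± 4.29 in p53KO–emiRFP and 13.1% ± 3.62 in WT–emiRFP cells. Gdf11 stood above its 96 h level in p53KO–emiRFP cells, at 225% ± 40.3, and at 35.7% ± 11.2 in WT–emiRFP cells. WT–mCherry cells beside WT kept 2.07% ± 0.165 of Cdx2, 10.5% ± 2.79 of Cdx4, 0.769% ± 0.130 of Nkx1-2 and 0.720% ± 0.0780 of Evx1, and beside p53KO they kept 7.40% ± 0.528, 34.0% ± 4.40, 2.59% ± 0.496 and 1.82% ± 0.402. Of Cdx1 they kept 1.36% ± 0.414 beside WT and 5.09% ± 0.778 beside p53KO. The shares of Sp8 were 27.4% ± 2.39 beside WT and 18.8% ± 3.65 beside p53KO, and those of Gdf11 were 69% ± 8.28 and 69% ± 21.2. The counts behind these shares include the emiRFP RNA of those sorts. With that RNA subtracted, as described with the neighbour comparison, the shares beside p53KO were 4.56% ± 1.65 for Cdx2, 14.7% ± 16.2 for Cdx4, 1.58% ± 0.878 for Nkx1-2 and 0.952% ± 0.292 for Evx1, and 5.24% ± 0.947, 14.2% ± 1.53 and 51.1% ± 10.6 for Cdx1, Sp8 and Gdf11. Beside WT subtraction gave 2.07% ± 0.166, 10.6% ± 2.77, 0.770% ± 0.132 and 0.711% ± 0.0810 for the first 4 genes. All 7 members had their highest mean at 96 h in WT–emiRFP cells, while in p53KO–emiRFP cells Cdx4 and Gdf11 had theirs at 120 h. WT–mCherry Gdf11 was highest at 120 h beside either neighbour, and Cdx4 was highest at 120 h beside p53KO and at 96 h beside WT.

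**Figure D3:**
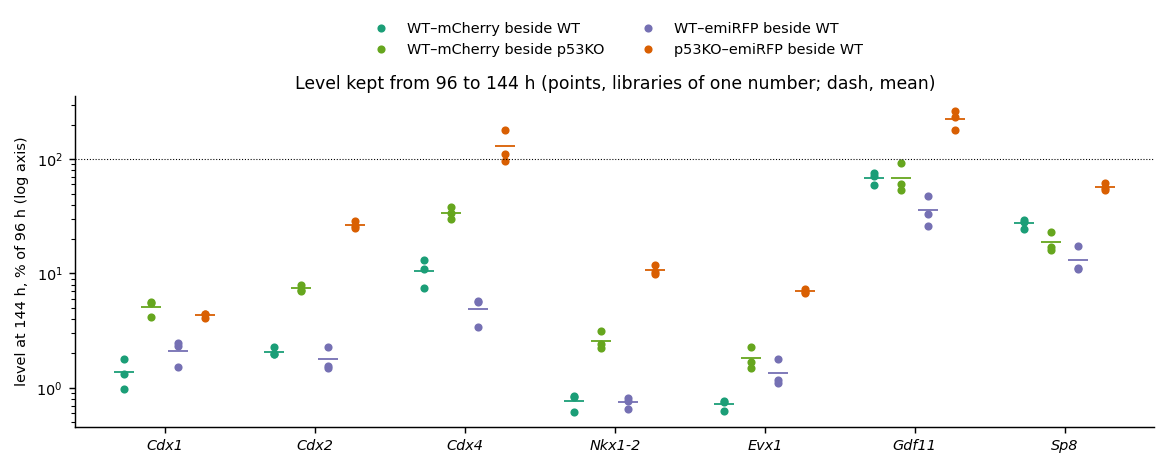
Level at 144 h as a percentage of the level at 96 h (log axis) for each member, with a point for each pair of same-numbered libraries, a dash for the mean and a colour for each population. The dotted line marks 100%. Gdf11 and Cdx4 in p53KO–emiRFP cells have means above the line, and Nkx1-2 and Evx1 in WT–emiRFP cells have means of 0.745% and 1.35%.

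Per kilobase of exon, the make-up of the Cdx family changed with time and population. In WT–emiRFP cells at 96 h Cdx1 made up 63.6% ± 1.56 of the summed level of the 3 genes, Cdx2 29.6% ± 0.684 and Cdx4 6.78% ± 2.14 (SD, n = 3). In p53KO–emiRFP cells the shares were 52.7% ± 2.61, 39.4% ± 0.954 and 7.85% ± 2.48. By 144 h Cdx1 still made up 61% ± 6.66 in WT–emiRFP cells but 10.2% ± 0.531 in p53KO–emiRFP cells, where Cdx2 made up 47.3% ± 1.49 and Cdx4 42.5% ± 1.78. The summed level at 144 h was 5409 ± 286 normalized counts per kilobase in p53KO–emiRFP and 459.9 ± 82.1 in WT–emiRFP cells. All 3 shares had separate ranges between these populations at 120 and at 144 h. An exact two-sided permutation test of 3 against 3 cannot go under p = 0.1, so none of the 27 share comparisons could pass the threshold, and the lowest value adjusted over the 27 was 0.1929. WT–mCherry cells at 144 h had a more even make-up, with Cdx1 at 37.4% ± 8.08, Cdx2 at 29.4% ± 3.38 and Cdx4 at 33.2% ± 5.0 beside WT. Beside p53KO the shares were 41.4% ± 5.21, 36.7% ± 1.17 and 21.9% ± 4.51, with ranges that overlapped those beside WT for Cdx1 and were separate for Cdx2 and Cdx4. That pattern did not hold with emiRFP RNA subtracted, when the shares beside p53KO were 59.7% ± 12.7, 30.2% ± 4.25 and 10.1% ± 8.71 and those beside WT 37.1% ± 8.28, 29.4% ± 3.43 and 33.4% ± 5.12. The ranges then overlapped for Cdx2 and were separate for Cdx1 and Cdx4.

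**Figure D4:**
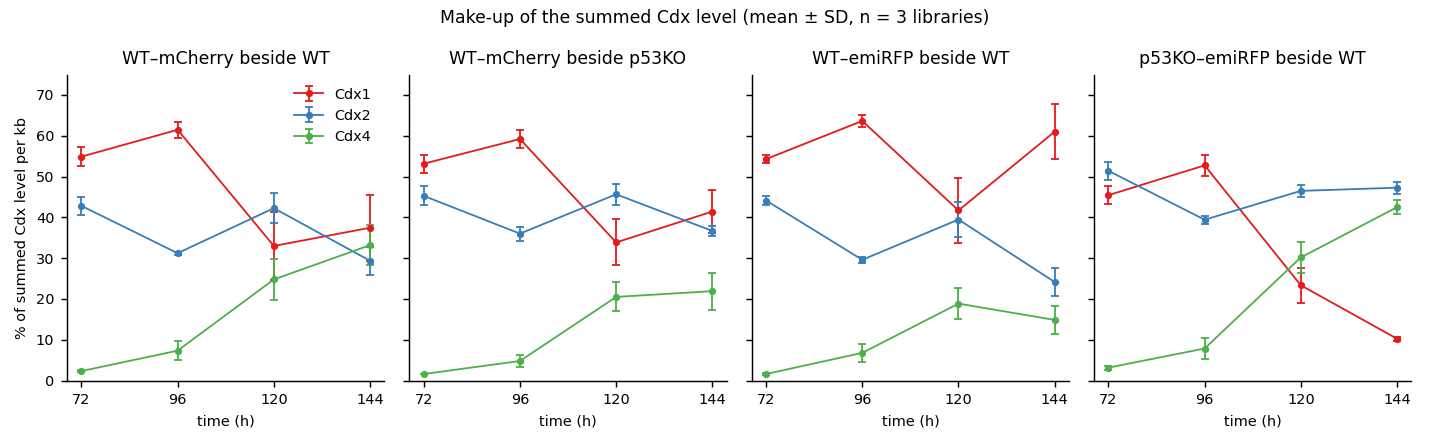
Share of Cdx1, Cdx2 and Cdx4 in the summed Cdx level per kilobase of exon, in percent, from 72 to 144 h in the 4 populations, as means with SD (n = 3). At 144 h Cdx1 makes up 10.2% in the p53KO–emiRFP population but 61% in WT–emiRFP cells.

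The order of the 7 members by level per kilobase changed in the same way. At 96 h in WT–emiRFP cells it ran from Cdx1 (13473 normalized counts per kilobase) over Cdx2 (6270, mean of 3 libraries) and Nkx1-2 (5820), then Cdx4 (1431) and Evx1 (1190), to Sp8 (635) and Gdf11 (412). Cdx2 and Nkx1-2 overlapped in this order, as did Cdx4 and Evx1. At 144 h in p53KO–emiRFP cells Cdx2 (2555) and Cdx4 (2299) led with overlapping ranges, followed by Nkx1-2 (907), Gdf11 (870), Cdx1 (555) and Sp8 (534), which overlapped, and Evx1 (146). In WT–emiRFP cells at that time Cdx1 (284) led over Gdf11 (142) and Cdx2 (110), which overlapped, then Sp8 (81.4) and Cdx4 (66.6), which overlapped, and Nkx1-2 (43.2) and Evx1 (15.8). WT–mCherry cells beside WT were led by Gdf11 (295), and those beside p53KO by Cdx1 (582) and Cdx2 (518), which overlapped. With emiRFP RNA subtracted Cdx1 beside p53KO stood at 494 to 661 and Cdx2 at 229 to 410.5 normalized counts per kilobase, which were separate.

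The design also asks how WT cells differ with the genotype of their neighbours, by setting WT–mCherry cells sorted from WT + p53KO gastruloids against those from WT + WT gastruloids. At 48 h 0 of 6 members tested were called by edgeR and 0 reached an unadjusted p under 0.05, where 0.0735% of genes (13) were called and 1068 reached that p. At 72 h 0 of 7 were called, 1 reached an unadjusted p under 0.05, as did 1744 genes, and 0.559% of genes were called. DESeq2 also called 0 members at both times, beside 51 and 279 genes. The member under 0.05 at 72 h was Cdx4, at -0.75 (adjusted p = 0.314, and 0.001359 with a replicate block). At 96 h 1 member was called, with 3.93% of genes called. Cdx1 stood at 19541, 19722 and 20982 normalized counts beside p53KO and 24566, 23912 and 23242 beside WT, and it was lower by a log2 fold change of -0.25 ± 0.06 (SE, adjusted p = 0.03796). The ranges were separate, but the call was lost without any 1 replicate number (adjusted p = 0.05314 to 0.3605). With a replicate block, under which 3830 of 18343 genes were called, 4 members were called at 96 h, adding Cdx4 at -0.80 (blocked adjusted p = 2.941e-08), Nkx1-2 at 0.14 (0.004523) and Gdf11 at -0.32 (0.0002173).

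At 120 h 2 of 7 members were higher in WT–mCherry cells beside p53KO, with 5.95% of genes called. Evx1 stood at 944, 1115 and 865 normalized counts beside p53KO and at 485, 312 and 474 beside WT. Cdx2 stood at 9332, 8818 and 7601 and 5949, 5038 and 5585. Neither pair of ranges overlapped. The log2 fold change was 1.20 ± 0.16 (SE, adjusted p = 0.0007353) for Evx1 and 0.64 ± 0.10 (SE, adjusted p = 0.002155) for Cdx2, and Cdx2 was not called without replicate 1 (adjusted p = 0.05685). Cdx1 gave 0.57 (adjusted p = 0.1244), Sp8 0.43 (0.08365), Nkx1-2 0.26 (0.1769), Cdx4 0.23 (0.5036) and Gdf11 0.03 (0.9505). Sp8 was called by DESeq2 (adjusted p = 0.03347). With a replicate block, under which 3826 of 18860 genes were called, 6 members passed, adding Cdx1 (2.5e-06), Sp8 (0.0004346), Nkx1-2 (0.01038) and Cdx4 (0.01724). Of the same-numbered libraries in this comparison 1 pair of 3 deviated together only weakly (correlation 0.0705). Cdx1 stood at 4571, 6403 and 3948 normalized counts beside p53KO and 3189.7, 4304 and 2553 beside WT. The change from 96 to 120 h differed with the neighbour for 1 member, Evx1, where 1.15% of genes were called, and that call was lost without replicate 2 (adjusted p = 0.2612).

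At 144 h 5 members were higher and 1 was lower in WT–mCherry cells beside p53KO, with 25.5% of genes called and 10.1% called higher. The members' median log2 fold change was 1.40 and that of all genes tested was -0.03. Nkx1-2 stood at 599, 530.0 and 719 normalized counts beside p53KO and 185, 141 and 170.0 beside WT, with a log2 fold change of 1.90 ± 0.12 (SE, adjusted p = 1.332e-06). Cdx2 stood at 1344, 1049.5 and 1121 and 361, 307 and 306, at 1.85 ± 0.11 (SE, adjusted p = 1.332e-06). Both genes were separate between the groups. Cdx1 stood at 1096, 1080.2 and 881 and 326, 429 and 226, at 1.63 ± 0.21 (SE, adjusted p = 0.0002232), a 3.09-fold difference. The levels beside p53KO overlapped those in p53KO–emiRFP cells, which held 872, 1004 and 1037. Evx1 stood at 93.9, 55.5 and 70.5 and 23, 28.7 and 31.9, at 1.40 ± 0.21 (SE, adjusted p = 0.0006256). Cdx4 stood at 687, 442 and 697 and 330.0, 297 and 324, at 0.95 ± 0.14 (SE, adjusted p = 0.000585). The ranges of both were separate as well. Sp8 went the other way, at 831, 534 and 647 and 977, 768 and 1066 with overlapping ranges and -0.48 ± 0.15 (SE, adjusted p = 0.03071). Its call was lost without replicate 2 (adjusted p = 0.05027), without replicate 3 (0.2633) and with only the 2 groups in the fit (0.0748). Gdf11 gave -0.32 ± 0.16 (SE, adjusted p = 0.1758), and an adjusted p of 0.03594 with a replicate block.

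These WT–mCherry libraries held some emiRFP RNA, which moves with the result. Scaled on H2bc14, the estimated emiRFP share at 144 h was 16.8%, 2.26% and 9.10% beside p53KO and 2.01%, 0.0919% and 1.59% beside WT. When the counts of the matching emiRFP library were subtracted at that share, 5 members were called at 144 h, 3 higher and 2 lower, with Gdf11 as the added call, where 6254 of 19367 genes were called and 2590 called higher. Cdx1 then gave 1.67 (adjusted p = 9.158e-05), Cdx2 1.11 (0.0002691) and Nkx1-2 1.18 (0.009491). Sp8 gave -0.91 (0.0001084) and Gdf11 -0.78 (0.0003653). Evx1, at 0.44 (0.1391), and Cdx4, at -0.56 (0.4736), lost their calls, and Cdx4 turned its direction. The subtracted Cdx4 values beside p53KO were 0, 351 and 275 normalized counts, so that replicate 1 had none left.

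Leaving out that first library beside p53KO, which held the largest emiRFP share, gave log2 fold changes of 1.57 for Cdx1, 1.74 for Cdx2, 0.85 for Cdx4, 1.92 for Nkx1-2 and 1.18 for Evx1. Sp8 gave -0.66 and Gdf11 -0.52, and all 7 members were then called, 5 higher and 2 lower, where 4507 of 19838 genes were called and 1644 called higher. At 120 h, with emiRFP shares of 7.35%, 2.91% and 6.55% beside p53KO, subtraction left Cdx2 at 0.58 (adjusted p = 0.004891) and Evx1 at 1.11 (0.001714). The change from 120 to 144 h differed with the neighbour for 4 members, where 7.62% of genes were called. It was more positive beside p53KO for Cdx1, Cdx2 and Nkx1-2 and more negative for Sp8. That of Cdx1 was not called without replicate 1 (adjusted p = 0.2689) or without replicate 3 (0.05046).

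**Figure D5:**
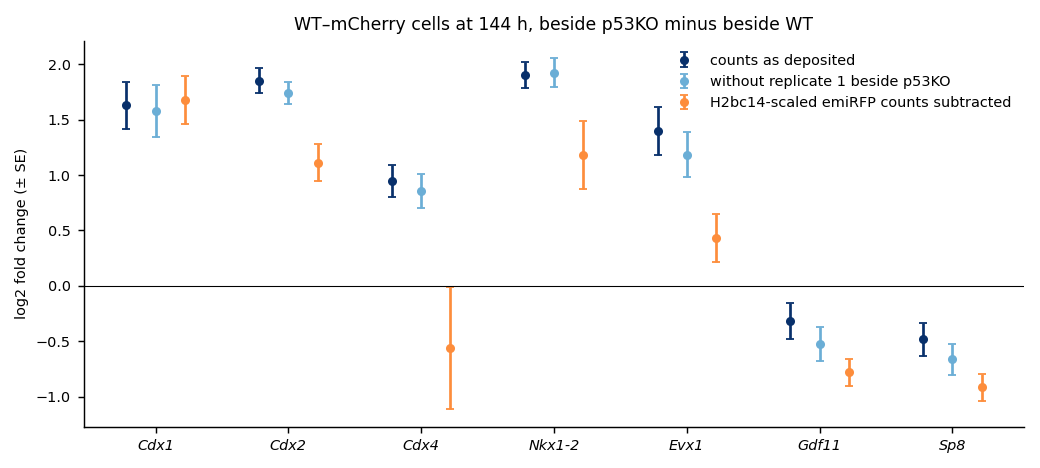
Log2 fold change with standard error of each member at 144 h for WT–mCherry cells with p53KO neighbours against WT neighbours, from the deposited counts, without replicate 1 beside p53KO, and after subtraction of emiRFP counts scaled on H2bc14. Cdx1, Cdx2 and Nkx1-2 stay above 0 in all 3 settings, Sp8 and Gdf11 stay below 0, and Cdx4 changes sign on subtraction.

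The clones themselves differed, which the WT–emiRFP and WT–mCherry cells of WT + WT gastruloids show. In mES cells 1 member was called, Nkx1-2, which was lower in WT–emiRFP cells (adjusted p = 0.02461), with 11.1% of genes called. WT–emiRFP mES cells held 3.95, 3.14 and 0.898 normalized counts of it and WT–mCherry mES cells 7.32, 204 and 8.27, so that the second WT–mCherry library was far above the others. Without that library Nkx1-2 gave an adjusted p of 0.3028 and 0 members were called. At 48, 72, 96 and 120 h 0 of the members were called by edgeR, where 8.89%, 7.64%, 2.15% and 1.24% of genes were called. The numbers of members at an unadjusted p under 0.05 were 1, 0, 4 and 5, beside 4109, 3951, 2969 and 2661 of all genes. DESeq2 called 0, 0, 0 and 4 members, beside 1740, 1723, 760 and 648 genes. With a replicate block, under which 5102 of 17686 genes were called, 1 member passed at 48 h, Nkx1-2 at -0.36 (adjusted p = 0.03365). At 96 h 4 members passed with the block (2929 genes called), all lower in WT–emiRFP cells. They were Cdx4 (adjusted p = 0.03603), Nkx1-2 (0.0007244), Evx1 (0.0246) and Sp8 (0.004397). At 120 h 5 passed with the block (2040 genes called), again all lower, namely Cdx2 (0.001726), Cdx4 (2.253e-05), Nkx1-2 (0.001128), Gdf11 (0.0008183) and Sp8 (0.0002328). Without the block their log2 fold changes ran from -0.68 for Cdx4 to -0.38 for Cdx2.

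At 144 h 5 of 7 members differed between the 2 WT clones, 1 higher and 4 lower in WT–emiRFP cells, with 23.8% of genes called. Sp8 stood at 425, 331 and 356 normalized counts in WT–emiRFP and 977, 768 and 1066 in WT–mCherry cells, a log2 fold change of -1.33 ± 0.15 (SE, adjusted p = 0.0001007). Cdx4 stood at 146, 116 and 130.4 and 330.0, 297 and 324, at -1.27 ± 0.16 (SE, adjusted p = 0.0001695). Gdf11 stood at 690.3, 502 and 536 and 1162, 1030.5 and 1398, at -1.05 ± 0.17 (SE, adjusted p = 0.0007017). The ranges of these 3 were separate. Cdx2, at -0.39 ± 0.12 (SE, adjusted p = 0.03003), and Evx1, which was higher in WT–emiRFP cells at 0.71 ± 0.23 (SE, adjusted p = 0.03555), had smaller differences. Cdx2 was not called without replicate 2 or 3 (adjusted p up to 0.1844), Evx1 was not called without any 1 replicate number (up to 0.2446), and neither was called with only the 2 groups in the fit. Cdx1 gave 0.59 ± 0.21 (SE, adjusted p = 0.06156), and 0.006967 with a replicate block. For Sp8, Cdx4 and Gdf11 at 144 h, p53KO–emiRFP cells thus differed less from WT–mCherry cells than from their parental WT–emiRFP clone. The log2 fold changes were 1.38 against 2.71 for Sp8 and 1.56 against 2.62 for Gdf11. Cdx4 gave 3.83 from WT–mCherry cells, under its value from WT–emiRFP cells. Cdx2 and Nkx1-2, at 4.15 and 4.16, differed less as well, while Cdx1 and Evx1, at 1.56 and 3.92, differed more.

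Other genes of the caudal progenitor state, from a list chosen with earlier results of these data known, are given by their counts. For p53KO–emiRFP against WT–emiRFP cells 23.3%, 51% and 65.3% of all genes were called at 96, 120 and 144 h. For WT–mCherry cells by neighbour 5.95% were called at 120 h and 25.5% at 144 h. The medians of all genes in these comparisons ran from -0.03 to 0.05. These backgrounds hold for the lists that follow as well. Of 19 such genes 4 were higher and 3 lower at 96 h (median 0.14). Of the same genes 13 were higher and 4 lower at 120 h for p53KO–emiRFP against WT–emiRFP cells, with a median log2 fold change of 1.14, and 14 were higher and 4 lower at 144 h, with a median of 2.14. At 120 h Tbx6, a T-box factor of paraxial mesoderm, gave 3.88, the ligand Wnt3a 3.37, Pou5f1 -1.86 and the ligand Nodal -1.78. At 144 h the tail bud ligand Wnt5a had the largest difference of the list, at 4.85 ± 0.22 (SE, adjusted p = 6.643e-10), with 7607 ± 187 against 263 ± 59.7 normalized counts (SD, n = 3). T, also called Brachyury, a T-box factor of the streak and tail bud, gave 4.37 ± 0.17 (SE, adjusted p = 2.286e-10). The lowest were Nodal, at -2.54 ± 0.11 (SE, adjusted p = 4.301e-10), and Pou5f1, at -2.38 ± 0.10 (SE, adjusted p = 4.525e-10). Pou5f1 stood at 2191, 2484 and 3109 normalized counts in p53KO–emiRFP and 13717, 13304 and 13524 in WT–emiRFP cells. The population with the lower members had the higher Pou5f1 in this comparison. In WT–mCherry cells at 144 h, where 5 members were higher and 1 lower beside p53KO, Pou5f1 went the other way. It stood at 12507, 10919 and 10488 beside p53KO and at 9849, 9930 and 10283 beside WT. At 96 h it stood at 12012 ± 1585 in p53KO–emiRFP and 10878 ± 1342 in WT–emiRFP cells (SD, n = 3). A link between Pou5f1 and the members was not tested. Beside p53KO 8 list genes were higher and 0 lower in WT–mCherry cells at 120 h, with a median of 0.31, led by Tbx6 at 1.56 and Wnt3a at 1.34. Among WT–mCherry populations at 144 h, 8 list genes were higher and 2 lower beside p53KO, with a median of 0.28. Among them were Sp5 at 1.66, Tbx6 at 1.59, Lin28b, a translational and miRNA regulator, at -0.78 and the Hes repressor Hes3 at -0.71. With emiRFP RNA subtracted 6 were higher and 5 lower (median 0.24), and Tbx6 gave 0.90 (adjusted p = 0.04297).

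Of 16 genes of the upstream Wnt, FGF and retinoic acid pathways, 3 were higher and 7 lower in p53KO–emiRFP cells at 96 h (median -0.20), when 4 members were called higher. At the later times 13 were higher and 2 lower in p53KO–emiRFP cells at 120 h (median 0.65), and 10 were higher and 4 lower at 144 h (median 0.40). The Wnt enhancer Rspo3 gave 2.72 at 120 h and 5.12 ± 0.19 (SE, adjusted p = 1.309e-10) at 144 h. The Wnt antagonist Dkk1 gave 2.67 at 120 h, and the retinoic acid synthesis enzyme Aldh1a2 gave 2.04 at 144 h. Lower genes were the repressor Tcf7l1, at -0.93 and -0.83, the receptor Rarb, at -0.44 at 120 h, and the FGF feedback inhibitor Spry4, at -0.74 at 144 h. At 120 h WT–mCherry cells beside p53KO had 7 of the 16 higher and 1 lower (median 0.10), with Aldh1a2 at 1.71, Dkk1 at 1.28 and Tcf7l1 at -0.46. At 144 h they had 4 of the 16 higher and 6 lower (median -0.14), with Rspo3 at 1.34, Tcf7 at 0.40, the FGF target Dusp6 at -0.95 and Spry4 at -0.82. With emiRFP RNA subtracted 3 were higher and 7 lower (median -0.16), and Rspo3 was no longer called, at -0.13 (adjusted p = 0.8977).

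The Hox genes lie downstream of Cdx factors and Gdf11. Of 15 trunk Hox genes of paralogue groups 5 to 9, 0 were higher and 1 lower in p53KO–emiRFP cells at 96 h (median 0.15). All 15 were higher in p53KO–emiRFP cells at 120 h (median 1.24) and at 144 h (median 2.62). Hoxb6 gave 1.63 and Hoxc8 1.60 at 120 h, and Hoxa7 gave 3.33 ± 0.19 (SE, adjusted p = 3.794e-09) and Hoxb7 3.22 ± 0.29 (SE, adjusted p = 2.791e-07) at 144 h. WT–emiRFP cells lay under WT–mCherry cells for all 15 at 144 h (median -1.29). WT–mCherry cells beside p53KO had 0 of the 15 higher and 4 lower at 144 h (median -0.42), among them Hoxc9 at -0.94 and Hoxb9 at -0.61. With emiRFP RNA subtracted 13 of the 15 were lower and 0 higher (median -0.86). The unsubtracted summed level at 144 h was 39009 to 44429 normalized counts in p53KO–emiRFP, 5477 to 7968 in WT–emiRFP, 13961 to 16924 in WT–mCherry cells beside WT and 8709 to 14055 beside p53KO. Of the posterior Hox genes, paralogue groups 10 to 13, 2 of 8 tested were higher and 1 lower in p53KO–emiRFP cells at 120 h (median 0.64), and 6 of 9 were higher and 1 lower at 144 h (median 3.18). At 120 h these were Hoxd13 at 1.5, Hoxb13 at 1.26 and Hoxc13 at -1.27. At 144 h Hoxc10 gave 3.95 ± 0.26 (SE, adjusted p = 1.681e-08), and Hoxc13 -1.45, and Hoxa11 stood at 100.1 ± 29.4 against 4.01 ± 1.78 normalized counts (SD, n = 3, adjusted p = 5.113e-07). Beside p53KO 2 of the 9 were higher in WT–mCherry cells at 144 h, Hoxc13 at 1.41 and Hoxb13 at 1.25, and 0 lower (median 0.50). With subtraction 2 were higher and 1 lower (median 0.08). At 120 h 0 of the 15 trunk and 0 of 8 posterior Hox genes tested were called by neighbour (medians 0.13 and 0.15).

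Genes that process, receive or oppose the Gdf11 ligand were mixed. Of 15 tested 2 were higher and 4 lower in p53KO–emiRFP cells at 96 h (median -0.07), 7 were higher and 2 lower at 120 h (median 0.34), and 10 were higher and 3 lower at 144 h (median 0.50). Pcsk5, a convertase that cleaves the Gdf11 precursor, gave 0.87 at 120 h and 2.53 ± 0.17 (SE, adjusted p = 1.577e-08) at 144 h, and the convertase Furin gave 0.72 at 120 h. The TGFβ-binding protein Ltbp1 gave 1.90 at 144 h. The inhibitory Smad, Smad7, gave -1.75 and -1.68 ± 0.14 (SE, adjusted p = 1.313e-07), and the Gdf11 antagonist Wfikkn2, was lower at both times at very low levels, with 2.98 ± 2.76 against 10.7 ± 6.70 normalized counts at 120 h and 4.47 ± 1.68 against 11.5 ± 7.37 normalized counts at 144 h (SD, n = 3). Beside p53KO 1 of the 15 was called in WT–mCherry cells at 120 h (median 0.03), Smad7 at -0.75, and 2 were higher and 6 lower at 144 h (median -0.13). The antagonist Fstl3 gave 0.96, Ltbp1 0.31, the antagonist follistatin (Fst) -1.53 and the receptor Tgfbr1 -0.61. With emiRFP RNA subtracted 1 was higher and 7 lower (median -0.13), and Ltbp1 was no longer called, at 0.08 (adjusted p = 0.3365). Among 6 tested relatives of the members, 2 were higher in p53KO–emiRFP cells at 120 h and 3 at 144 h, and 0 were lower. Sp5, a partner of Sp8, gave 2.16 and 3.68 ± 0.18 (SE, adjusted p = 9.873e-10), and the ParaHox gene Pdx1 gave 1.99 and 2.23 at under 60 normalized counts. Sp5 was the 1 relative called by neighbour at 120 h, at 1.13. The relatives higher in WT–mCherry cells beside p53KO at 144 h numbered 2, Sp5 and the ParaHox gene Gsx2 at 1.45, and 0 were lower.

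Markers of other cell types moved with these comparisons, and their part in the members' differences was not tested. All 8 presomitic mesoderm markers were higher in p53KO–emiRFP cells at 120 h (median 2.81) and at 144 h (median 3.48), with Msgn1 at 4.69 at 120 h and the clock gene Hes7 at 6.14 at 144 h. At 96 h, when 4 members were called higher, 0 of the 8 markers were higher and 6 were lower (median -0.69), with summed levels of 35256 to 45777 normalized counts in p53KO–emiRFP against 52293 to 66150 in WT–emiRFP cells. The summed level at 144 h was 14624 to 15727 normalized counts in p53KO–emiRFP and 1995 to 2669 in WT–emiRFP cells. The sum for WT–mCherry cells was 3706 to 4101 beside WT and 3319 to 4199 beside p53KO. In WT–mCherry cells beside p53KO at 144 h, 6 of the 8 were higher and 1 lower (median 1.18), with Hes7 at 2.49, Msgn1 at 1.59 (10.2 ± 2.26 against 3.37 ± 1.58 normalized counts, SD, n = 3) and Dll1 at -0.33. With emiRFP RNA subtracted 2 of the 8 were higher and 2 lower (median 0.0018), Hes7 gave 0.31 (adjusted p = 0.7705), Msgn1 0.13 (adjusted p = 0.9348) and Dll1 -0.85 (adjusted p = 8.979e-05). At 120 h, when Evx1 and Cdx2 were called there, all 8 were higher beside p53KO (median 1.00, and 0.94 with all 8 higher after subtraction), with Msgn1 at 1.85 and Tbx6 at 1.56. The summed level was then 24467 to 30640 normalized counts beside p53KO and 11791 to 15376 beside WT. Other cell type markers moved there at 120 h as well. Of 7 haematoendothelial markers 3 were lower and 0 higher (median -0.29), with Kdr at -1.71 and Tal1 at -1.45 and summed levels of 2716 to 3232 beside p53KO against 3766 to 4591 beside WT. Of 8 spinal cord markers 2 were lower, Olig3 at -0.73, which was not called after subtraction (adjusted p = 0.06492), and Sox1 at -0.50. The trophoblast list had 1 lower of 9, Elf5 at -0.72, and the germ cell list 1 lower of 5, Prdm1 at -0.64. The endoderm and anterior lists had 0 called, and 1 endoderm marker was higher after subtraction. Of 8 spinal cord markers 1 was higher and 1 lower in p53KO–emiRFP cells at 120 h, Sox1 at 0.34 and Olig3 at -2.31. At 144 h 4 were higher and 1 lower, with Pax3 at 2.36, Sox1 at 2.27 and Olig3 at -2.53. Pax3 alone stood at 3243 ± 559 in p53KO–emiRFP and 632 ± 191 in WT–emiRFP cells (SD, n = 3). Whether its RNA came from spinal cord or from other cells was not tested. Beside p53KO 5 of the 8 were lower in WT–mCherry cells, among them Olig2 at -1.80 and Nkx6-1 at -1.49, and 0 were higher. After subtraction 6 were lower and 0 higher. The summed level was 8932 to 10577 normalized counts in p53KO–emiRFP and 3037 to 3944 in WT–emiRFP cells at 144 h, and 5885 to 7185 and 3666 to 5825 in WT–mCherry cells beside WT and beside p53KO.

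Trophoblast and endoderm markers were mostly lower in p53KO–emiRFP cells at 120 and 144 h, and endoderm markers were mostly higher at 96 h. At 96 h 5 of 8 endoderm markers were higher and 1 lower (median 0.60), and 2 of 9 trophoblast markers were higher and 1 lower (median -0.17). Of 9 trophoblast markers 7 were lower at 120 h (median -0.95) and 9 at 144 h (median -1.35), with 0 higher at both times. Plet1 gave -3.17 and -2.43, Krt7 -1.79 at 120 h and Hand1 -2.59 at 144 h, and the summed level at 144 h was 2259 to 3156 against 4727 to 6411 normalized counts in WT–emiRFP cells. Of 8 endoderm markers 5 were lower and 0 higher at 120 h (median -0.57), and the counts were the same at 144 h (median -0.82). Spink1 gave -2.98 and -3.22, Sox17 -1.24 at 120 h and Cdh1 -1.5 at 144 h. In WT–mCherry cells beside p53KO at 144 h, 3 endoderm markers were higher, with Spink1 at 1.85 and Sox17 at 1.20, as was 1 trophoblast marker, Tead4 at 0.35, and 0 of either list were lower. The summed endoderm level at 144 h was 11176 to 16016 in p53KO–emiRFP, 29873 to 34061 in WT–emiRFP, 22348 to 27497 in WT–mCherry cells beside WT and 26368 to 32838 beside p53KO. Cdh1 alone stood at 6359 ± 1249 in p53KO–emiRFP and 17969 ± 1630 in WT–emiRFP cells (SD, n = 3). The trophoblast sum in WT–mCherry cells was 3528 to 5058 beside WT and 3690.2 to 5441 beside p53KO.

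Haematoendothelial and primordial germ cell markers were mostly lower in p53KO–emiRFP cells at 120 and 144 h. At 96 h 2 of 7 haematoendothelial markers were higher and 2 lower (median -0.48), and 0 of 5 germ cell markers were higher and 2 lower (median -0.23). Of the haematoendothelial markers 5 were lower at 120 h (median -1.71) and 4 at 144 h (median -1.14), with 0 higher. Examples were Kdr at -2.98 at 120 h, Pecam1 at -2.63 and -2.57, and Sox7 at -1.88 at 144 h. All 5 primordial germ cell markers were lower at both times (medians -1.79 and -1.60), with Prdm14 at -3.43 and -3.00 and Nanos3 at -2.78 and -2.25. Of the anterior epiblast and brain markers 1 of 5 tested was higher, Lhx5 at 1.57, and 1 lower, Otx2 at -1.49, at 120 h. At 144 h 2 of 6 were higher, among them Fezf1 with 14.4 ± 4.06 against 3.10 ± 0.883 normalized counts, and 3 lower, among them Otx2 at -1.90 and Hesx1 at -1.67. In WT–mCherry cells beside p53KO at 144 h the haematoendothelial list had 1 higher and 3 lower (Sox7 1.27, Kdr -1.29, Etv2 -1.09). The germ cell list had 3 higher and 1 lower (Nanos3 0.55, Dnd1 0.37, Prdm1 -0.48), and the anterior list had 0 higher and 3 lower (En1 -1.70, Lhx5 -1.53). Subtraction of emiRFP RNA left the counts of the endoderm, trophoblast, germ cell and anterior lists as they were and gave 2 higher and 3 lower for the haematoendothelial list. At 144 h the summed levels, p53KO–emiRFP before WT–emiRFP cells, were 1823 to 2255 and 7438 to 7674 for the haematoendothelial list, 2069 to 2226 and 5650.1 to 6108 for the germ cell list and 388 to 459 and 1120.0 to 1453 for the anterior list. The WT–mCherry sums, beside WT before beside p53KO, were 5452 to 5974 and 5771 to 6361, 4755 to 4883 and 4528 to 5297, and 902 to 1082 and 702 to 752. A large part of the haematoendothelial sum was Pecam1, which the study also used as a surface marker of pluripotency. At 144 h Pecam1 alone stood at 1032 ± 195 in p53KO–emiRFP and 6126 ± 114 in WT–emiRFP cells (SD, n = 3). Of all these markers Six3 in WT–mCherry cells beside WT was the one that stood at or under 3 counts in every library of a population at 144 h.

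The genes whose profile over the 23 group means was most like that of each member were found among 15935 genes, by Pearson correlation of log2 mean levels, and are given as a description. Groups share clones and gastruloids, so that the 23 points are not independent. Cdx1 was closest to the methyl group metabolism genes Bhmt2 (r = 0.976) and Dmgdh (0.975) and to Wnt3a (0.974). Cdx2 was closest to Tnfrsf19 (0.982), a receptor gene and Wnt target, and to the Wnt receptor genes Ror2 (0.969) and Fzd10 (0.966). Cdx4 was closest to Arid3a (0.988), Rftn2 (0.981) and Hoxaas3 (0.978), a transcript antisense to the Hoxa cluster. Nkx1-2 was closest to Axin2 (0.981), a feedback inhibitor and direct Wnt target, then Gm43860 (0.974) and Lrrk1 (0.969). Evx1 was closest to Sp5 (0.990), Evx1os (0.986) and T (0.975). Gdf11 was closest to Mllt3 (0.995), the ephrin receptor gene Epha5 (0.986) and Itprip (0.983). Sp8 was closest to Ror2 (0.988), Pcdhgc4 (0.988) and the Wnt inhibitor Nkd1 (0.983). Among the members themselves Cdx2 and Sp8 were the most alike (0.946) and Evx1 and Gdf11 the least (0.505).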

How the data were processed

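Poly-A RNA of the sorted populations had been sequenced with a stranded kit. The authors trimmed reads with Trim Galore 0.6.7, aligned them to GRCm38.p6 with STAR 2.7.11b and Gencode annotation, and deposited raw counts of uniquely mapped reads per gene symbol, which were the unit used here. The strand setting of the counts was not given in the sources used here. All 69 count columns were assigned to samples by their names, and 0 columns of per-sample values were left unused. Symbols, each with its own row, were taken as deposited. Counting error is largest for Cdx1, Cdx4 and Evx1 at 48 h and for Nkx1-2 at 0 h.

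Counts were normalized by median-of-ratios size factors over all 69 libraries. Differences were tested with the quasi-likelihood test of edgeR 4.0.16 (limma 3.58.1, R 4.3.3) after its default low-count filter, in one fit per time point of 9 libraries at 0 h and 12 later. Changes between time points, and differences between populations in those changes, came from one fit of all 69 libraries. P-values were adjusted by Benjamini-Hochberg over all genes tested, with a threshold of 0.05. The standard error of a log2 fold change was derived from the fold change and its F statistic. The code was tested on simulated data. Shares of the Cdx family, per kilobase of merged exons, were compared by exact permutation.

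Alternatives were TMM scaling, no low-count filter, a replicate block, a fit of only the 2 groups compared, DESeq2 1.42.0, leaving out each replicate number, and subtraction of emiRFP counts scaled on H2bc14. Leaving out the second WT–mCherry mES library or the first WT–mCherry library beside p53KO at 144 h, WT–mCherry cells as comparator for p53KO–emiRFP cells, and 3 of the alternatives for the change with the neighbour were chosen after seeing the data. Same-numbered libraries deviated together from their group means in 48 of 51 pairs (correlation over 0.1, range 0.0406 to 0.688, 14106 genes), and 14 of 17 comparisons between populations and 11 of 20 time steps passed this check in every pair. The study describes the replicates as independent experiments. The labels do not say that a replicate number marks a shared experiment, so the pairing was taken from the numbers and this check.

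Members and lists were chosen with earlier results of these data known. Beside the members, the text names from each list up to 2 genes with the largest called rise and 2 with the largest called fall at 120 and 144 h, and for each member the 3 genes with the most similar profile, among genes with a mean of at least 50 normalized counts in some group and with a pseudocount of 1. A level at or under 3 counts in every library of a group was taken as the floor. A gene that this rule would name is not reported here.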

Additional observations from a re-analysis of the deposited data

Results flagged for a closer look

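Changes between time points that differed between p53KO–emiRFP and WT–emiRFP cells, or in WT–mCherry cells between the 2 kinds of neighbour, are given here as the difference of the log2 fold changes, each from an interaction contrast in the edgeR fit of all 69 libraries. A positive value means that the level rose more, or fell less, in p53KO–emiRFP cells or beside p53KO cells.

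From 72 to 96 h the change of Sp8 differed between p53KO–emiRFP and WT–emiRFP cells by 0.62 (SE 0.20, adjusted p = 0.02735). Leaving out any 1 replicate number took the adjusted p to between 0.06538 and 0.2433. From 96 to 120 h the difference was 1.72 (SE 0.31, adjusted p = 1.384e-05) for Cdx4, 1.54 (SE 0.22, adjusted p = 8.587e-08) for Evx1 and 1.44 (SE 0.23, adjusted p = 1.313e-06) for Gdf11. It was 1.36 (SE 0.20, adjusted p = 1.744e-07) for Sp8 and 1.10 (SE 0.23, adjusted p = 0.0001387) for Cdx2. These 5 genes include Cdx4 and Gdf11, which rose in p53KO–emiRFP cells over this step.

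From 120 to 144 h the difference was largest for Nkx1-2, at 3.38 (SE 0.32, adjusted p = 4.975e-12), followed by Cdx4, at 2.95 (SE 0.35, adjusted p = 2.757e-09), and Cdx2, at 2.82 (SE 0.25, adjusted p = 1.292e-12). Gdf11 differed by 1.22 (SE 0.23, adjusted p = 8.102e-05), Evx1 by 0.85 (SE 0.28, adjusted p = 0.02931) and Sp8 by 0.80 (SE 0.21, adjusted p = 0.003475). Evx1 was not called without replicate 1 (adjusted p = 0.1015) or replicate 3 (0.2553), and Sp8 was not called without replicate 1 (0.0566). Over this last day the transcription factors Nkx1-2, Cdx4 and Cdx2 thus added most to the gap between the populations, and Cdx1 was not called.

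In WT–mCherry cells the change of Evx1 from 96 to 120 h differed with the neighbour by 1.15 (SE 0.22, adjusted p = 0.001298). From 120 to 144 h the change differed by 1.64 (SE 0.32, adjusted p = 0.0003894) for Nkx1-2, by 1.22 (SE 0.25, adjusted p = 0.0008361) for Cdx2 and by 1.05 (SE 0.31, adjusted p = 0.02711) for Cdx1, and in the other direction by -0.91 (SE 0.20, adjusted p = 0.002089) for Sp8. The emiRFP share estimated from H2bc14 also differed with the neighbour at these times, as given with the results at 144 h, and its part in these differences was not tested.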

How the results depend on the processing

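The members' log2 fold changes were tallied over all alternatives where they had been called in the main fit. Uncalled ones were tallied only for p53KO–emiRFP against WT–emiRFP cells at 96, 120 and 144 h and by neighbour at 120 and 144 h. Gains in other comparisons are therefore not in the tally. Of the tallied values 1340 kept their direction and side of the threshold, 68 lost and 17 gained significance and 4 reversed. Of the counts of members called 285 stayed within 1.5 times and 42 did not. The reversals were Gdf11 in p53KO–emiRFP against WT–emiRFP cells at 96 h without replicate 2 (0.0035, range with a replicate left out -0.11 to 0.0035), Gdf11 in WT–mCherry cells by neighbour at 120 h without replicate 2 (range -0.0385 to 0.081) and with emiRFP counts subtracted (-0.0569), and Cdx4 there at 144 h with emiRFP counts subtracted (-0.56), of which the first 3 were never called. With subtraction Gdf11 was called at 144 h. Few reads limit Cdx1, Cdx4 and Evx1 at 48 h and Nkx1-2 at 0 h. The cause of the changes was not tested.

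Counts of members called moved as follows. For p53KO–emiRFP against WT–emiRFP cells they went from 1 to 3 without the low-count filter and to 0 to 1 with a replicate left out at 0 h, and from 1 to 4 without the filter, to 4 with the block and to 0 to 1 with a replicate left out at 72 h. For WT–mCherry cells by neighbour they went from 0 to 2 without the filter and to 1 with the block at 72 h, from 1 to 3, to 4 and to 0 (every replicate left out) at 96 h, and from 2 to 6 without the filter, 6 with the block and 1 to 4 with a replicate left out at 120 h. For WT–emiRFP against WT–mCherry cells they went from 1 to 2 without the filter, 2 with the block, 0 with only the 2 groups, 0 to 2 with a replicate left out and 0 without the second WT–mCherry mES library at 0 h. They went to 1 with the block at 48 h, to 2 without the filter and 1 with the block at 72 h, to 2 and 4 at 96 h, to 5 and 5 with 4 by DESeq2 and 0 to 3 with a replicate left out at 120 h, and from 5 to 3 with only the 2 groups and 3 to 4 with a replicate left out at 144 h. The count of differing changes from 72 to 96 h went from 1 to 5 without the filter, 2 with the block and 0 to 1 with a replicate left out, and that with the neighbour from 96 to 120 h from 1 to 4, 2 and 0 to 1.

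Where every same-numbered pair deviated together, the block changed no call beyond those given with the results. In the comparisons that follow not every such pair did: with the block Nkx1-2 passed for the differing change from 72 to 96 h (adjusted p = 0.04176), Cdx1 from 96 to 120 h (0.03544), Cdx4 with the neighbour (0.0004711 and 0.02753), and Cdx4 in WT–emiRFP cells from 0 to 48 h (0.01156). The calls it added at 120 h by neighbour are given with that result. For WT–emiRFP against WT–mCherry cells Cdx2 passed at 0 h (0.04072) and Cdx4 at 72 h (0.003186).

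Over all genes, p53KO–emiRFP against WT–emiRFP calls went from 1123 to 1799 with the block, 248 to 1824 with a replicate left out and 3924 against WT–mCherry cells at 0 h, from 3899 to 7262 with the block and as few as 1769 with a replicate left out at 48 h, from 5147 to as few as 2637 at 72 h, and from 4267 to 7078 with the block and as few as 1848 at 96 h. WT–mCherry calls by neighbour went from 13 to 89 without the filter, 869 with the block, 5 with only the 2 groups, 51 by DESeq2 and 0 to 6 with a replicate left out at 48 h, in the same order from 99 to 322, 402, 44, 279 and 0 to 39 at 72 h, from 720 to 1507, 3830, 275, 1229 and as few as 0 at 96 h, from 1123 to 1865, 3826, 531 and, with a replicate left out, 140 to 609 at 120 h, and from 4954 to 2312 to 3044 with a replicate left out at 144 h. WT–emiRFP against WT–mCherry calls at 0 h went from 2028 to 3176 with the block and to 118 to 2603 with a replicate left out. Without the second WT–mCherry mES library they were 1168. At 48 h they went from 1573 to 5102 with the block and to 337 to 980 with a replicate left out. At 72 h they went from 1354 to 2865 with the block and to 553 with only the 2 groups. With a replicate left out at 72 h they fell to as few as 167. At 96 h they went from 395 to 1045 without the filter, 2929 with the block, 164 with only the 2 groups, 760 by DESeq2 and as few as 30, at 120 h from 233 to 844, 2040, 66, 648 and 18, and at 144 h from 4620 to 2176 to 2922 with a replicate left out. Differing changes from 72 to 96 h went from 2333 to 924 to 1318, from 96 to 120 h from 6501 to 4188 and from 120 to 144 h from 3575 to 1762 with a replicate left out. With the neighbour they went from 243 to 488 without the filter, 414 with the block and 40 to 99 with a replicate left out, and from 1611 to 2575 with the block and as few as 366. TMM scaling moved no median of all genes by over 0.1. DESeq2 was run with the size factors of the edgeR fits and was no test of the scaling.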
